A study of Homo sapiens with 4 samples.

Results

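RNA levels of 44 genes that fold, quality-check and dispose of proteins in the endoplasmic reticulum (ER) were followed in hepatocellular carcinoma cells in which CDCA8 was silenced. The genes were taken by name for their role in the ER, with earlier results of these data known, and all 44 were found among the 18382 gene symbols measured. Huh1 and Huh7, established human liver cancer cell lines, were transfected for 48 h with 15 nM siRNA. It was either a negative control siRNA (NCsiRNA) or an siRNA against CDCA8 (CDCA8siRNA). No other agent and no engineered allele was named for any group, and the genotypes of the cell lines were not compared here. CDCA8 encodes borealin, a subunit of the chromosomal passenger complex that works in mitosis. Each of the 4 conditions gave 1 library from a whole culture, so a change in RNA per cell and a change in the make-up of the culture cannot be told apart. A single siRNA against CDCA8 was sequenced, so loss of CDCA8 and any other action of that siRNA cannot be told apart either. Levels were compared within each cell line as CDCA8siRNA against NCsiRNA, and across both lines in a joint model.

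Proteins that are secreted or inserted into membranes enter the ER through the SEC61 channel, where they meet chaperones of the HSP70 and HSP90 families, the lectins calnexin and calreticulin, and disulfide isomerases. Chains that fail to fold are handed to a ubiquitin ligase complex in the ER membrane, drawn back into the cytosol and degraded by the proteasome. When unfolded chains accumulate, the sensors IRE1 (ERN1), ATF6 and PERK start the unfolded protein response, in which ATF6 and spliced XBP1 raise the transcription of many of the same chaperones. Hepatocytes secrete albumin, apolipoproteins and clotting factors in bulk and carry a large rough ER.

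The known target sites of that response were looked for in the members' promoters, since they show which members carry letters that ATF6 and XBP1 are known to read. A RefSeq promoter (GRCh38.p14, 250 bases before to 50 bases after the start) was matched for 41 of the 44 genes, and PDIA3, DERL1 and DERL3 were not matched. The ER stress response element, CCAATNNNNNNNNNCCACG on either strand, was found in 8 of the 41 members (19.5%), against 25 of 27305 genes with a promoter (0.0916%) and 27 of 35116 promoters (0.0769%). Those 25 genes include the 8 members. The motifs were chosen as known target sites of this response, so their shares among its genes are no independent result. The 8 stretches are written 5′ to 3′ on the strand of the gene, with the motif or its reverse complement in capitals.
HSPA5: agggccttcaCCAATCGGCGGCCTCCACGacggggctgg
HSP90B1: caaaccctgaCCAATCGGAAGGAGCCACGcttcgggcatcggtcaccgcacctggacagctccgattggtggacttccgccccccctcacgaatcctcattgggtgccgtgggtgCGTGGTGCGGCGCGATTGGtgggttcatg
CALR: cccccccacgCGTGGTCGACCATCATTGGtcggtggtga
CANX: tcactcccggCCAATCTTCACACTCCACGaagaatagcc
PDIA6: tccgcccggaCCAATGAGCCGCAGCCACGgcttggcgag
XBP1: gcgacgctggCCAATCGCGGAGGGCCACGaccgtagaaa
CRELD2: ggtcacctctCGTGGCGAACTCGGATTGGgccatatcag
ERO1LB: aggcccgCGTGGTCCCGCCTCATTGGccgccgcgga
The HSPA5 stretch lies at chr9:125241381-125241419 on the minus strand, from 76 to 38 bases before the RefSeq start. The others lie at chr12:103930206-103930349 (HSP90B1, plus strand), chr19:12938374-12938412 (CALR, plus), chr5:179698768-179698806 (CANX, plus), chr2:10812843-10812881 (PDIA6, minus), chr22:28800593-28800631 (XBP1, minus), chr22:49918544-49918582 (CRELD2, plus) and chr1:236282173-236282208 (ERO1LB, minus). HSP90B1 had a pair of matches in 1 window, one on each strand.

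A second form of the element, ATTGGNCCACG on either strand, was found in 3 of the 41 members (7.32%) against 0.0696% of genes. These 3 stretches are shown because their genes, a chaperone, a cofactor and a ligase partner, carry the second form and not the first.
HYOU1: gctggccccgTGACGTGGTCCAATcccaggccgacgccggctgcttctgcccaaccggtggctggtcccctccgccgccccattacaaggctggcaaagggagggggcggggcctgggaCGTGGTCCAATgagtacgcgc
SDF2L1: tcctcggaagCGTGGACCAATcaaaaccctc
HERPUD1: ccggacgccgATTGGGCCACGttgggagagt
They lie at chr11:119057264-119057403 (HYOU1, minus strand), chr22:21642104-21642134 (SDF2L1, plus) and chr16:56932015-56932045 (HERPUD1, plus). The last motif, the unfolded protein response element TGACGTGG on either strand, was found in 4 of the 41 members (9.76%: DNAJC10, HYOU1, SSR3 and SSR4) against 0.927% of genes, and in HYOU1 it overlaps the first match of the second form. Together 11 members held one of the 2 forms of the ER stress response element. A gene with several promoter windows was counted if any of them held a match. CANX, PDIA6, XBP1, SSR3 and SSR4 each also had a window without any of the motifs. A match is a description of letters and was not tested as a binding site. Only exact matches within these windows were looked for, so a member without a match may still carry a variant or more distant site.

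Depth was even, with between 12145557 and 13303273 reads behind the scaling of a library, as estimated from the steps between low values. CDCA8 itself stood at 24.1 RPKM in Huh1 with NCsiRNA and 5.86 with CDCA8siRNA, and at 51.5 and 7.36 in Huh7, so that 24.3% and 14.3% of the control level remained. RPKM counts reads per length of transcript and per depth of the library. The liver origin of the lines was seen in all 11 hepatocyte markers examined, whose summed level ran from 2508 to 6297 RPKM. That sum was lower with CDCA8siRNA in both lines (6297 to 5350 RPKM in Huh1, 3500 to 2508 in Huh7), with 9 of the 11 markers lower in each. Of the markers of other cells, 3 endothelial genes (CDH5, VWF and KDR; PECAM1 was not analysed here) summed to at most 0.0247 RPKM, and the 5 blood genes, of which only CD68 passed 1 RPKM, to between 3.99 and 23.6. The 3 cholangiocyte genes summed to between 100.1 and 144 RPKM, but the lines differed in which gene was high. With NCsiRNA, KRT7 was at 84.4 RPKM in Huh1 and 0.66 in Huh7, KRT19 at 12.0 and 110, and SOX9 at 3.72 and 30.4. The 6 fibroblast or stellate genes, 4 of them over 1 RPKM, summed to 12.1 and 25.9 in Huh1 and 284 and 377 in Huh7. The part of these markers in the results was not tested.

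As a group the 44 genes were abundant. Their summed level was 4182 RPKM in Huh1 with NCsiRNA and 3844 with CDCA8siRNA, which is 0.901% and 0.846% of all RPKM in those libraries. In Huh7 it was 5381 and 5013 RPKM, or 1.27% and 1.20%. Only DERL3 stayed under 1 RPKM in every library, and ERO1LB stayed under 1 RPKM in Huh1, so that 42 genes could be compared in Huh1, 43 in Huh7 and 42 in both. At the other end CALR reached 803 RPKM, HSP90B1 693, P4HB 410, SEC61G 355 and CANX 350.

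**Figure D1:**
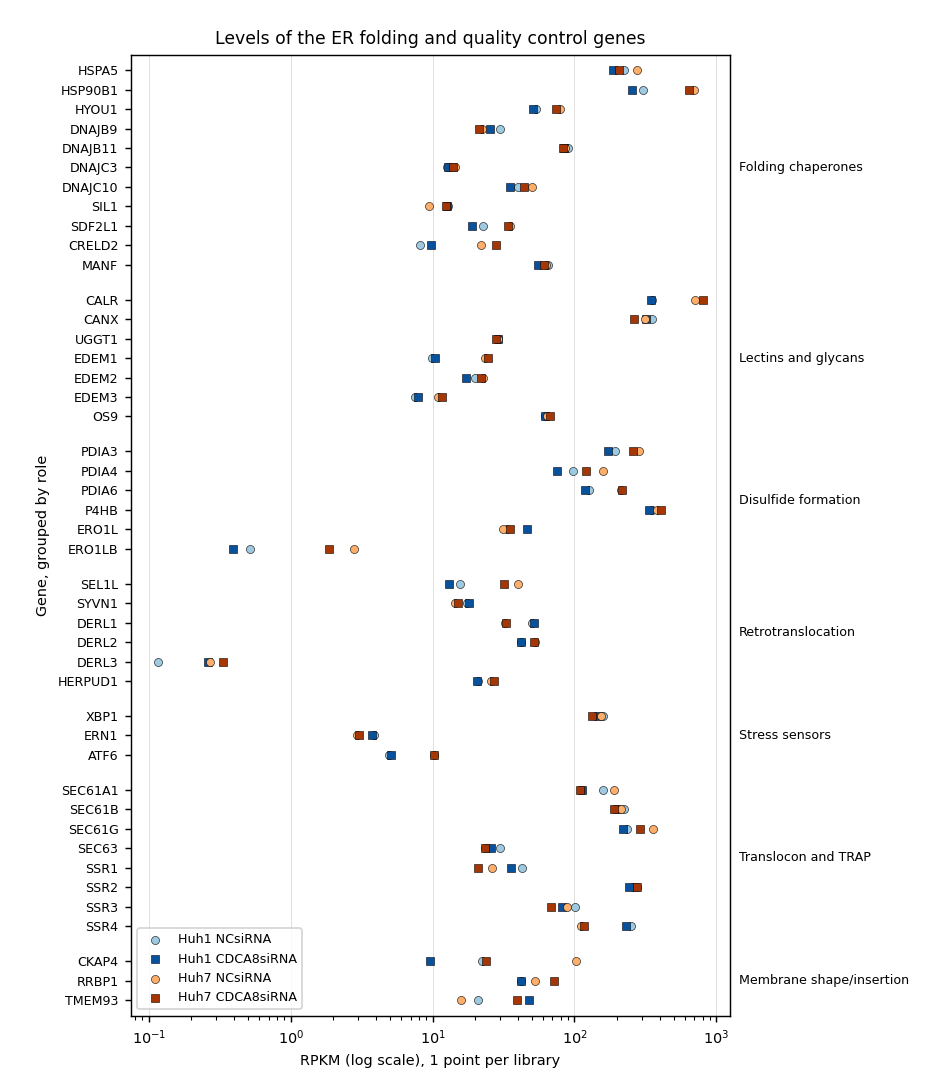
RPKM of the 44 genes on a log scale, grouped by role, with 1 point per library (circles NCsiRNA, squares CDCA8siRNA, blue Huh1, orange and brown Huh7). The circle and the square of a line nearly coincide for most genes, CKAP4, TMEM93 and SEC61A1 have them clearly apart, and DERL3 lies below 1 RPKM in all 4 libraries.

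Silencing of CDCA8 left most of these genes close to their control level and moved a few strongly. CKAP4, which spaces the sheets of the rough ER, was the gene with the steepest decline, TMEM93, a subunit of the complex that inserts membrane proteins, was the one with the steepest rise, and SEC61A1, the channel itself, came next. Counted at a 2-fold change on the log2(RPKM + 1) scale, 1 of 42 genes was higher in Huh1 and 1 lower, against 0.32% and 0.174% of all genes. At 1.5-fold the Huh1 counts were still 1 and 1, against 2.48% and 1.27% of all genes. In Huh7, 1 of 43 genes was 2-fold higher and 1 lower (background 0.874% and 0.701%), and at 1.5-fold 1 was higher and 2 lower (background 5.3% and 3.43%). TMEM93 accounted for the higher and CKAP4 for the lower gene in each line, with SEC61A1 as the additional gene at 1.5-fold in Huh7. With 1 library per condition there was no test within a line, and the errors given for single genes are the SD that read counting alone adds to a log2 fold change.

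The joint limma model of both lines placed 6 of the 42 genes past an adjusted p of 0.05. Its spread for a gene joins the disagreement between the lines, on 1 residual degree of freedom, with a spread borrowed from other genes. The borrowed part counts for 8.25 degrees of freedom, so the p-value of a gene only partly weighs its own disagreement between the lines. TMEM93 rose, and HSPA5, PDIA4, SEC61A1, SSR3 and CKAP4 fell, while 6.01% of all genes tested rose and 4.15% fell. Thus 11.9% of the members fell by this test. These calls need the cell line in the model and the filter on low values: without either, no member and no gene of the whole table passed in limma, at unadjusted counts under 0.05 of 2 members and 89 genes without the cell line, and 12 members and 2049 genes without the filter. Without the mean-variance trend in limma, TMEM93, SEC61A1 and CKAP4 passed, and HSPA5, PDIA4 and SSR3 did not.

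Below the size of single calls, more of the members were lower than higher. Levels with CDCA8siRNA were below those with NCsiRNA for 31 of 42 genes in Huh1 (73.8%) and 27 of 43 in Huh7 (62.8%), beside 44.9% and 45.5% of all genes. In both lines at once, 22 of the 42 (52.4%) were lower against 30.5% of all genes, 7 (16.7%) were higher against 39% of all genes, and 13 (31.0%) went opposite ways against 30.6%. The shift was small, with a median log2 difference of −0.083 in Huh1 and −0.034 in Huh7 beside 0.023 and 0.033 over all genes, whose SD was 0.261 and 0.347. Most members are abundant, and among genes with a mean of at least 10 RPKM the shares were 33.8% lower and 36.5% higher in both lines, against 56.4% and 15.4% of the 39 members at that level. Under the other scalings tried, 22 to 24 members were lower in both lines and 8 higher.

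**Figure D2:**
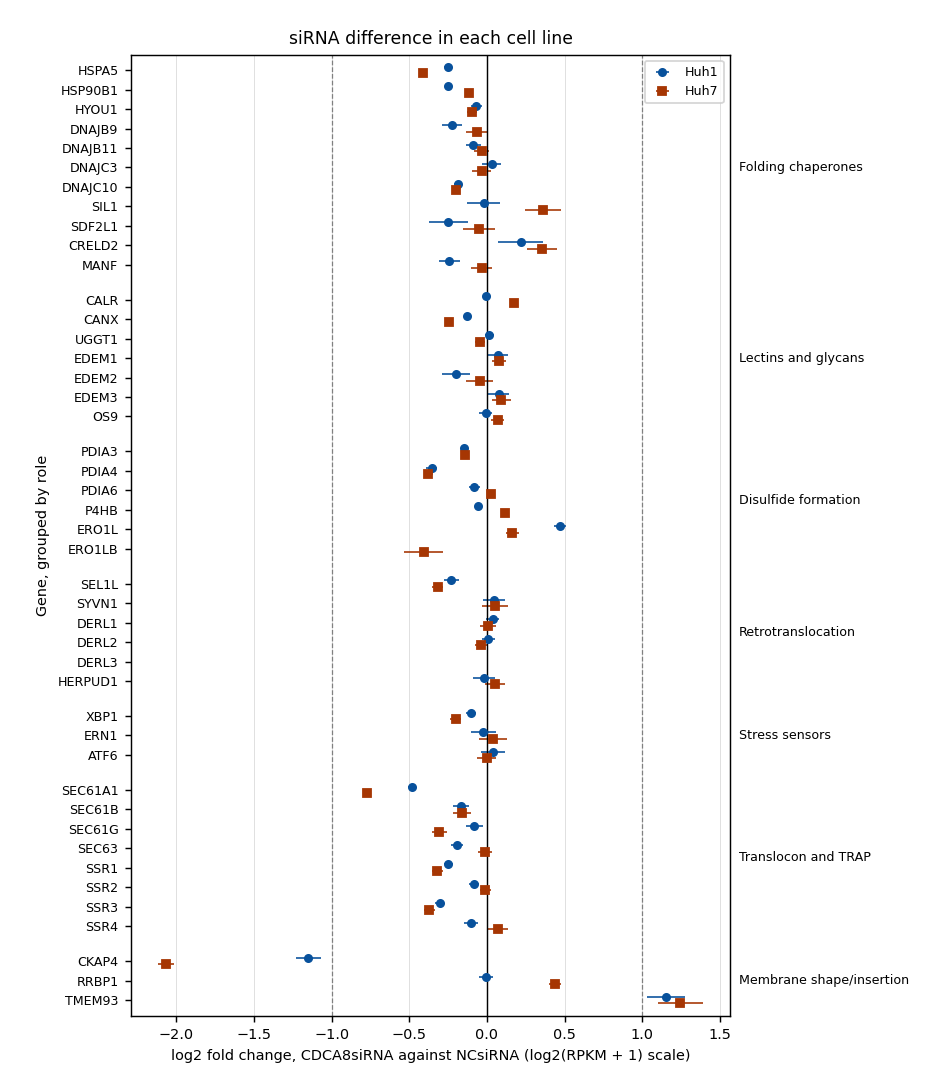
log2 fold change (CDCA8siRNA against NCsiRNA, log2(RPKM + 1) scale) of each gene in Huh1 (blue circles) and Huh7 (brown squares), grouped by role, with bars for the SD from read counting and dashed lines at a 2-fold change. CKAP4 at −1.15 and −2.07 and TMEM93 at 1.16 and 1.25 lie outside the dashed lines, and all 8 translocon and TRAP genes lie left of zero in Huh1. DERL3 in both lines and ERO1LB in Huh1 are not drawn because they were under 1 RPKM.

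CKAP4 encodes CLIMP-63, a protein that spans the ER sheet and ties it to microtubules, and it was the member that changed most. Its level was 22.4 RPKM in Huh1 with NCsiRNA, 9.54 in Huh1 with CDCA8siRNA, 103 in Huh7 with NCsiRNA and 23.8 in Huh7 with CDCA8siRNA. The control level in Huh7 stood far above the other 3 libraries, and CDCA8siRNA brought Huh7 down to about the control level of Huh1. The log2 fold change was −1.15 (counting SD 0.081) in Huh1 and −2.07 (counting SD 0.052) in Huh7, the 9th lowest of 10933 genes and the 5th lowest of 11558. The joint estimate was −1.61 (SE 0.18, adjusted p = 0.0015), with a spread mostly borrowed from other genes. The drop was larger in Huh7 by 0.91 log2 units (counting SD 0.096), a difference beyond counting error that 1 library per condition could not test. CKAP4 lies at chr12:106237877-106304279 on the minus strand (GRCh38), and no exon of another gene overlaps its transcript. None of the 3 motifs was found in its promoter, whose 120 bases before the start are shown for contrast with the chaperone promoters above and are 82.5% G or C.
CKAP4: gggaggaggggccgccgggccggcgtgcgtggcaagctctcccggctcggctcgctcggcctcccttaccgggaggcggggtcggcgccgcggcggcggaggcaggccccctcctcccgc
The stretch lies at chr12:106248021-106248140.

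TMEM93, now named EMC6, is a subunit of the ER membrane protein complex, which inserts tail-anchored and multipass proteins. It was at 21.0 RPKM in Huh1 with NCsiRNA, 48.1 in Huh1 with CDCA8siRNA, 16.0 in Huh7 with NCsiRNA and 39.3 in Huh7 with CDCA8siRNA. Both silenced libraries lay above both controls. The log2 fold change was 1.16 (counting SD 0.12) in Huh1 and 1.25 (counting SD 0.14) in Huh7, the 13th highest of 10933 and the 31st highest of 11558 genes. The joint estimate was 1.20 (SE 0.095, adjusted p = 0.00067). The lines differed by 0.091 in log2 units (counting SD 0.19), within counting error. This value carries a limit, because 568 bases, 87.0% of its transcript at chr17:3668815-3669668 on the plus strand, overlap exons of the readthrough gene P2RX5-TAX1BP3 on the opposite strand, and the library kit does not mark strand. The readthrough gene was not analysed here. Of its component genes, TAX1BP3 stood at 53.3, 69.1, 71.0 and 76.7 RPKM in the 4 libraries in the same order, higher with CDCA8siRNA. P2RX5 stood at 9.23, 8.42, 1.49 and 0.706, lower with CDCA8siRNA. What the overlap adds to the TMEM93 value was not tested. The other genes of the ER membrane protein complex gave no call either way in 8 tested, and their log2 fold changes lay between −0.18 and 0.20 in Huh1 and between −0.22 and 0.042 in Huh7.

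RRBP1, the ribosome receptor p180 of ER sheets, completed the membrane group. Its level was 42.1 and 41.9 RPKM in Huh1 (NCsiRNA, then CDCA8siRNA) and 52.3 and 71.2 in Huh7. Only the Huh7 library with CDCA8siRNA stood out, with a log2 fold change of 0.44 (counting SD 0.038) against −0.0074 in Huh1. The joint model gave an adjusted p of 0.27. CKAP4 and RRBP1, both proteins of ER sheets, thus differed in direction in Huh7.

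**Figure D3:**
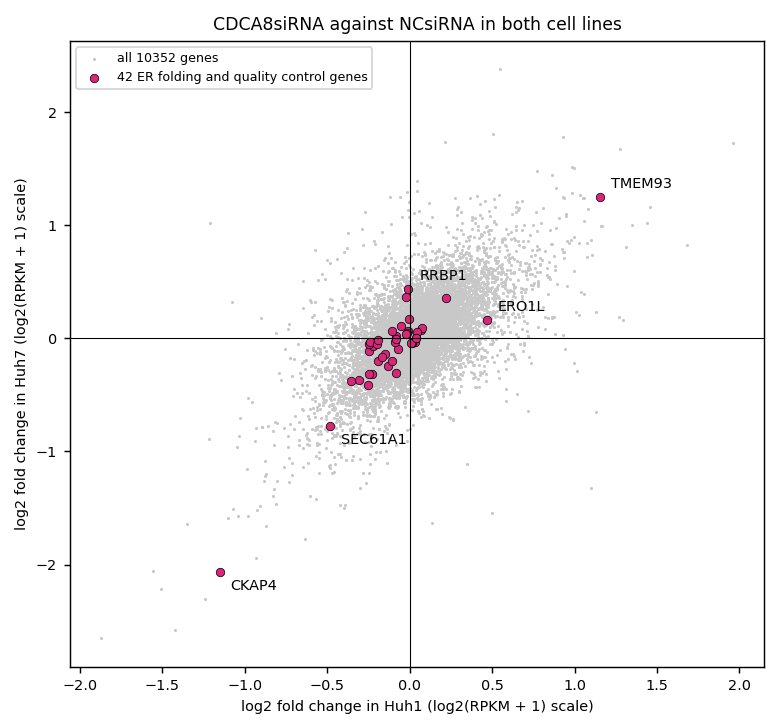
log2 fold change in Huh1 (x axis) against Huh7 (y axis), CDCA8siRNA against NCsiRNA on the log2(RPKM + 1) scale, for 10352 genes with at least 1 RPKM in a library of each line (grey) and the 42 ER genes among them (pink). CKAP4 and TMEM93 lie at opposite ends of the cloud, SEC61A1 follows CKAP4, and most other ER genes lie near the origin, more of them below and left of it than above and right.

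The SEC61 channel and the TRAP complex, through which nascent chains enter the ER, mostly had lower levels with CDCA8siRNA. All 8 genes were lower in Huh1 and 7 of 8 in Huh7, beside 44.9% and 45.5% of all genes, with medians of −0.18 and −0.23. SEC61A1 and SSR3 fell in the joint test, as did 4.15% of all genes, and nothing particular to these 8 genes was tested. Their summed level was 1293 and 1148 RPKM in Huh1 and 1281 and 1090 in Huh7. Of the 8, 7 were lower in both lines (30.5% of all genes), and 5 and 6 under upper quartile scaling and quantile normalization.

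SEC61A1, the pore-forming subunit, fell, from 158 RPKM in control to 113 in silenced Huh1 cells and from 189 to 110 in Huh7. Both silenced libraries lay below both controls, and after silencing the lines stood at nearly the same level. The log2 fold change was −0.48 (counting SD 0.026) in Huh1 and −0.77 (counting SD 0.026) in Huh7, with a joint estimate of −0.63 (SE 0.092, adjusted p = 0.0052). The gene lies at chr3:128051641-128071683 on the plus strand, 4.43% of its transcript overlaps an exon of RUVBL1 on the opposite strand, and neither of its promoter windows held one of the 3 motifs. The small subunits differed less. SEC61B was at 224 and 199 RPKM in Huh1 and 211 and 189 in Huh7, and SEC61G at 233 and 220 in Huh1 and 355 and 287 in Huh7 (adjusted p = 0.20 and 0.17). The ratio of SEC61B to SEC61A1, both per length, was therefore higher in the silenced libraries, at 1.42 and 1.77 in Huh1 and 1.12 and 1.72 in Huh7. SEC63, which recruits HSPA5 to the channel, was at 29.8 and 25.9 RPKM in Huh1 and 23.5 and 23.3 in Huh7.

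The 4 TRAP subunits, which assist the entry of some signal sequences, differed in their values. SSR3, the gamma subunit, fell, from 101 RPKM in control to 81.5 in silenced Huh1 cells and from 89.2 to 68.8 in Huh7, so that both silenced libraries lay below both controls (joint log2 −0.34, SE 0.083, adjusted p = 0.036, and 0.090 without the trend). SSR1, the alpha subunit, was at 42.9 and 35.9 RPKM in Huh1 and 26.3 and 20.9 in Huh7, and at an adjusted p of 0.090 it did not pass. Values of SSR2, the beta subunit, hardly differed, at 257 and 242 RPKM in Huh1 and 276 and 274 in Huh7. SSR4, the delta subunit, was at 248 and 231 RPKM in Huh1 and 111 and 117 in Huh7, and was the gene of the group that was higher with CDCA8siRNA in Huh7. SSR4 lies on the X chromosome, and its 2 Huh7 libraries lay far below its 2 Huh1 libraries.

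Among the folding chaperones and their cofactors, 9 of 11 genes were lower in each line and 8 in both (44.9%, 45.5% and 30.5% of all genes), with medians of −0.19 in Huh1 and −0.050 in Huh7, and 1 passed the joint test. HSPA5 (BiP), the HSP70 of the ER and the restraint on the stress sensors, fell, from 224 RPKM in control to 188 in silenced Huh1 cells and from 274 to 205 in Huh7. The silenced library was the lower one in each line, although the silenced Huh7 library stayed above the silenced Huh1 library. Its log2 fold change was −0.25 (counting SD 0.020) in Huh1 and −0.41 (counting SD 0.019) in Huh7 (joint −0.33, SE 0.078, adjusted p = 0.030, and 0.10 without the trend). HSP90B1 (GRP94), the HSP90 of the ER, was at 304 and 256 RPKM in Huh1 and 693 and 639 in Huh7 (adjusted p = 0.14). The distance between the lines was much wider for HSP90B1 than the distance between siRNAs.

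The partners of HSPA5 showed small differences. HYOU1, its nucleotide exchange factor and a large HSP70 relative, was at 53.6 and 51.0 RPKM in Huh1 and 79.6 and 74.3 in Huh7, and SIL1, a second exchange factor, at 12.9 and 12.7 in Huh1 and 9.49 and 12.5 in Huh7. The single SIL1 value that stood apart was the Huh7 control. The J-domain cochaperones differed by little. DNAJB9 was at 30.1 and 25.6 RPKM in Huh1 and 22.3 and 21.3 in Huh7, DNAJB11 at 90.1 and 84.7, then 85.6 and 83.6, and DNAJC3 at 12.6 and 12.9, then 14.3 and 14. DNAJC10, a J-domain disulfide reductase, was at 40.0 and 35.0 RPKM in Huh1 and 50.6 and 43.9 in Huh7, with log2 fold changes of −0.19 and −0.20 (adjusted p = 0.21). SDF2L1, which works with DNAJB11, was at 22.7 and 19 RPKM in Huh1 and 35.2 and 34.0 in Huh7. MANF, a secreted partner of HSPA5, was at 65.3 and 55.0, then 62.6 and 61.1. CRELD2 was the exception in this group that was higher in both lines, at 8.21 and 9.71 RPKM in Huh1 and 21.9 and 28.2 in Huh7 (log2 0.22 and 0.35, adjusted p = 0.12).

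The lectin chaperones and glycan readers, which hold glycoproteins until they are folded, gave no call in 7 genes. In both lines 2 were lower and 2 higher, where 30.5% and 39% of all genes were. CALR (calreticulin) was at 349 and 348 RPKM in Huh1 and 712 and 803 in Huh7. CANX (calnexin), its membrane-bound relative, was at 350 and 319 RPKM in Huh1 and 313 and 263 in Huh7 (adjusted p = 0.14). The lines thus differed in the balance of these lectins: the CALR to CANX ratio, per length, was 0.999 and 1.09 in Huh1 and 2.28 and 3.05 in Huh7. UGGT1, the sensor that returns misfolded glycoproteins to them, was at 28.7 and 29.1 RPKM in Huh1 and 28.7 and 27.8 in Huh7. It was among the steadiest values of the set. The EDEM mannosidases mark glycoproteins for disposal: EDEM1 was at 9.84 and 10.4, then 23.3 and 24.6, EDEM2 at 19.9 and 17.2, then 22.7 and 21.9, and EDEM3 at 7.48 and 7.93, then 10.9 and 11.7. OS9, the lectin that receives them, was at 61.9 and 61.5 RPKM in Huh1 and 64.1 and 67.2 in Huh7, with 26.0% of its transcript overlapping an antisense gene.

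Of the 6 genes for disulfide bonds, PDIA4 was the one called. PDIA4 (ERp72) fell, from 97.0 RPKM in control to 75.6 in silenced Huh1 cells and from 158 to 121 in Huh7, with nearly the same log2 fold change in both lines (−0.36, counting SD 0.035, and −0.38, counting SD 0.029; joint −0.37, SE 0.080, adjusted p = 0.023, and 0.072 without the trend). The fall stood beside a higher level in Huh7, whose silenced library was still above both Huh1 libraries. The other isomerases differed less. PDIA3, the partner of both lectins, was at 192 and 174 RPKM in Huh1 and 287 and 260 in Huh7, PDIA6 at 126 and 119, then 214 and 218, and P4HB, the archetypal isomerase, at 351 and 338, then 379 and 410. Exons of opposite-strand genes overlap 21.5% of the PDIA3, 44.2% of the PDIA6 and 20.3% of the P4HB transcript. ERO1L (ERO1A), the oxidase that recharges the isomerases, was at 33.2 and 46.4 RPKM in Huh1 and 31.5 and 35.4 in Huh7. Its value in silenced Huh1 cells was the highest of the 4, with log2 fold changes of 0.47 and 0.16 and an adjusted p of 0.089. ERO1LB (ERO1B), its relative, was at 0.517 and 0.390 RPKM in Huh1, too low to compare, and at 2.81 and 1.87 in Huh7. ERO1L was the more abundant oxidase transcript in every library, at 11.2 and 18.9 times the level of ERO1LB in Huh7.

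The machinery of retrotranslocation and ubiquitination gave no call among the 5 genes that could be tested. SEL1L, the adaptor that docks substrates on the ligase, was at 15.6 and 13.1 RPKM in Huh1 and 39.7 and 31.7 in Huh7, lower with CDCA8siRNA in each line (adjusted p = 0.11). SYVN1 (HRD1), the ligase itself, was at 17.6 and 18.2 RPKM in Huh1 and 14.4 and 15 in Huh7. The ratio of ligase to adaptor, per length, was 1.13 and 1.38 in Huh1 and 0.363 and 0.474 in Huh7. The derlins, which thin the membrane for the exit of substrates, stood close to their control levels: DERL1 was at 50.4 and 51.7, then 32.6 and 32.8 RPKM, and DERL2 at 41.7 and 41.9, then 53.0 and 51.5. DERL3 was at 0.117 and 0.261 RPKM in Huh1 and 0.271 and 0.331 in Huh7, and 63.7% of its transcript overlaps exons of SMARCB1 on the opposite strand, so even these traces are uncertain. HERPUD1, a scaffold of the complex, was at 20.7 and 20.4 RPKM in Huh1 and 26.0 and 26.9 in Huh7.

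The sensors of ER stress gave no call in 3 genes. XBP1, whose mRNA is the substrate of IRE1, was at 159 and 147 RPKM in Huh1 and 154 and 133 in Huh7 (adjusted p = 0.26). The 1 value per library does not tell the spliced and unspliced forms of XBP1 apart. ERN1 (IRE1 alpha) was at 3.84 and 3.77 RPKM in Huh1 and 2.93 and 3.03 in Huh7. ATF6 was at 4.96 and 5.11 in Huh1 and 10.3 and 10.3 in Huh7. The ATF6 libraries of Huh7 were above both of Huh1, and the siRNAs of a line differed by less than counting error.

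The members that hold either form of the ER stress response element had about the same median siRNA difference as the other members in Huh1. In Huh7 their median was lower, and the difference was not tested. Of these 11 genes, 10 could be compared in Huh1, where the median log2 fold change was −0.092 (range −0.25 to 0.22), and 11 in Huh7, where it was −0.097 (range −0.41 to 0.35). The 30 members with a promoter and no such match had medians of −0.083 and −0.033, with wider ranges that CKAP4 and TMEM93 set. SSR3 was the only one of the 4 holders of the unfolded protein response element to pass the joint test. Its match lay in promoter window 3, and windows 1 and 2 of SSR3 held none of the motifs.

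Cell line was the larger difference in these data, for the members as for other genes. Over both siRNAs, 30 of the 43 genes tested differed between Huh7 and Huh1 in limma, 22 higher in Huh7 and 8 lower, where 42.5% and 28.8% of all genes did. At a 2-fold difference or more the counts were 7 higher and 1 lower, against 16.8% and 9.9% of all genes, so 2-fold differences were about as common among the members as elsewhere in the higher direction. In limma without the filter 19 of 44 members were called, without the trend 24 of 43 and without the siRNA term 20 of 43. Beside them 5432, 8332 and 6899 genes of the whole table were called. HSPA5, P4HB and EDEM2, higher in the main fit, and CANX, SYVN1 and SSR3, lower in it, were called in none of these. The 2 libraries of a line carry different siRNAs and are not replicates of a condition.

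**Figure D4:**
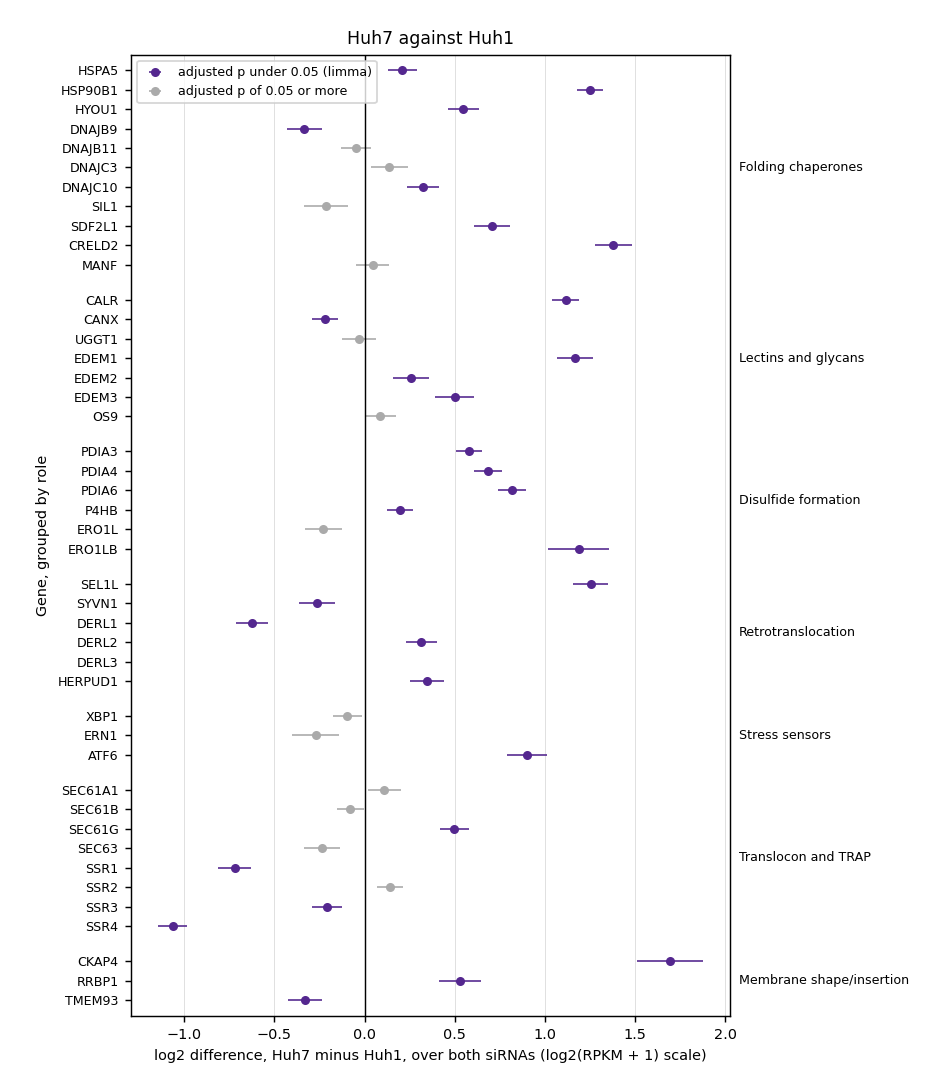
log2 difference between Huh7 and Huh1 over both siRNAs (log2(RPKM + 1) scale) for the 43 genes tested, grouped by role, with the SE of the joint model as bars and genes past an adjusted p of 0.05 in purple. CKAP4, CRELD2, HSP90B1, SEL1L, ERO1LB, EDEM1 and CALR lie above 1 and SSR4 below −1.

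The 7 genes at least 2-fold higher in Huh7 came from 5 of the 7 roles. CKAP4 led with a log2 difference of 1.69 (SE 0.18, adjusted p = 4.8e-05), followed by CRELD2 at 1.38, SEL1L at 1.25, HSP90B1 at 1.25, ERO1LB at 1.19, EDEM1 at 1.17 and CALR at 1.11. This order depends on the 1 RPKM added before the log, which compresses ERO1LB, a gene under 1 RPKM in Huh1. Its plain Huh7 to Huh1 ratios were 5.42 with NCsiRNA and 4.80 with CDCA8siRNA, against 4.59 and 2.50 for CKAP4. The CKAP4 call was lost without the filter (adjusted p = 0.088) and without the siRNA term (adjusted p = 0.11). For CKAP4 the lines nearly met, since silenced Huh7 at 23.8 RPKM lay just above control Huh1 at 22.4. Of the disulfide genes, 5 of 6 were called higher in Huh7 and none lower, against 42.5% and 28.8% of all genes. Beside ERO1LB these 5 were PDIA6 (0.82), PDIA4 (0.69), PDIA3 (0.58) and P4HB (0.20). P4HB was not called without the filter, the trend or the siRNA term. Nothing particular to these disulfide genes was tested. Among the sensors ATF6 alone was called (0.90, SE 0.11, adjusted p = 0.00011).

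The 8 genes lower in Huh7 included 3 of the 4 TRAP subunits, where 28.8% of all genes were called lower. SSR4 was lower by 1.06 log2 units (SE 0.081, adjusted p = 5.7e-06), SSR1 by 0.72 and SSR3 by 0.21, while SSR2 was at 0.14 with an adjusted p of 0.11. SSR4 and SSR2, which stood at nearly equal RPKM in Huh1 (ratios of 0.968 and 0.953), thus stood at ratios of 0.404 and 0.426 in Huh7. The rest were DERL1 (−0.63), DNAJB9 (−0.33), TMEM93 (−0.33), SYVN1 (−0.26) and CANX (−0.22). SSR4, SSR1 and DERL1 were called lower under each alternative fit of limma named next, which called 3 members lower in all without the filter, 5 without the trend and 3 without the siRNA term, and SSR3 was called in none of these. Members with an ER stress response element of either form had a median difference of 0.71 over 11 genes, 9 called higher and 1 lower. The 30 other members with a promoter had a median of 0.098, with 12 called higher and 6 lower. Over all genes tested the median was 0.14, with 42.5% called higher and 28.8% lower. The holders were also more abundant, at medians of 126 (Huh1) and 154 RPKM (Huh7) with NCsiRNA, against 36.6 and 45.2 for the others. HSPA5, among the 9 called higher, and CANX, the 1 called lower, were called in none of those alternative fits. This split was a description, and neither it nor the part of abundance in it was tested.

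Other genes of the pathway were taken from 6 lists with 113 genes, of which 109 were in the data and 102 were tested across both lines. Of these, 6 rose (5.88%) and 4 fell (3.92%), close to the 6.01% and 4.15% of all genes. PPP1R15A (GADD34), which reverses the translational block set by PERK, rose, from 16.6 RPKM in control to 26.4 in silenced Huh1 cells and from 28.4 to 56.1 in Huh7 (log2 0.64 and 0.96, adjusted p = 0.0035). PRDX4, a peroxiredoxin of the ER lumen that disposes of the peroxide made by the ERO1 oxidases, rose, from 36.2 RPKM in control to 56.7 in silenced Huh1 cells and from 142 to 264 in Huh7 (log2 0.63 and 0.89, adjusted p = 0.0024). These 2 were the pathway genes with at least a 1.5-fold change the same way in both lines. The remaining risers, named after their values were seen, were TRIB3, TXNDC12, FKBP14 and GANAB, the glucosidase subunit that prepares glycans for CANX and CALR. The genes that fell, also named afterwards, were SERP1, TXNIP, SPCS2 and RPN2. SERP1 (RAMP4), a small protein bound to the SEC61 channel, fell, from 71.2 RPKM in control to 48.4 in silenced Huh1 cells and from 56.9 to 27.9 in Huh7 (log2 −0.55 and −1.01, adjusted p = 0.0057), and its promoter too held the ER stress response element. SPCS2 belongs to the signal peptidase and RPN2 to the oligosaccharyltransferase, both of which act on chains at the channel. In the list of 25 genes for targeting, signal peptidase and oligosaccharyltransferase, 2 of 24 tested fell and none rose. In both lines 11 were lower and 8 higher, where 30.5% and 39% of all genes were. The 22 other genes of ER-associated degradation gave no call.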

How the data were processed

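The 4 RNA-seq libraries came from Huh1 and Huh7 cells and were grouped by their labels, with siRNA dose and time from the study's methods. The deposited tables hold 1 value for each of 18398 RefSeq transcripts, which the authors gave without a unit and which behave as RPKM. The submitters' processing notes name CASAVA 1.8.2, TopHat2 2.0.9 and hg19. The transcript counter and filters are not given in the sources used here. Of 16 symbols with several rows the highest was used. Fold changes were differences of log2(RPKM + 1) over genes with at least 1 RPKM in a library of the pair. Counting SDs used GENCODE 29 transcript lengths and recovered read totals. They cover counting error only, and are off where the authors' transcript differed. Across lines, limma 3.58.1 (R 4.3.3; lmFit, eBayes with trend, two-sided) was fitted to 10352 genes with the cell line as covariate, and to 12139 genes for Huh7 against Huh1 with the siRNA as covariate, leaving 1 residual degree of freedom, with Benjamini-Hochberg adjustment over all genes. The spread used joins that between these libraries with a spread borrowed from other genes. The siRNA fit was tested on simulated libraries in which a changed gene had the same fold in both lines. That test does not show how the p-values behave where the lines respond differently. Gene positions and exon overlaps are from GENCODE 29 (GRCh38), promoters from RefSeq. Python 3.11.15 was used for the rest. Every member was named, and pathway genes were named where at least 1.5-fold changed the same way in both lines. The members and lists were chosen with earlier results of these data known.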

Additional observations from a re-analysis of the deposited data

Results flagged for a closer look

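A total of 13 members differed in direction between the cell lines, higher with CDCA8siRNA in one and lower in the other. With 1 library per condition the difference was not tested for any of them, and 30.6% of all genes did the same. On the log2 scale the changes, Huh1 first and Huh7 next, were −0.0074 and 0.44 for RRBP1, −0.022 and 0.36 for SIL1, −0.0039 and 0.17 for CALR, −0.11 and 0.068 for SSR4, and −0.055 and 0.11 for P4HB. The gap between the lines was 7.63 times its counting SD for RRBP1, 6.61 times for CALR and 6.43 times for P4HB, and 2.44 times for SIL1. Smaller values were −0.080 and 0.025 for PDIA6, −0.0080 and 0.068 for OS9, −0.019 and 0.049 for HERPUD1, and −0.023 and 0.039 for ERN1. Lower in Huh7 instead were UGGT1 at 0.016 and −0.045, DNAJC3 at 0.030 and −0.032, DERL2 at 0.0090 and −0.041, and ATF6 at 0.037 and −0.00072.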

How the results depend on the processing

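No called value changed direction under any alternative run, and 181 of 195 summary values kept their count within 1.5 times. Those that did not follow. Genes changed 2-fold numbered 164 in Huh1 and 422 in Huh7 with a pseudocount of 0.1 RPKM, against 54 and 182. For the siRNA effect, 0 members and 0 genes were called higher or lower without a filter or without the cell line in limma, 2 members were higher (TMEM93 and ERO1L) after quantile normalization, and 2 fell without the trend, where HSPA5, PDIA4 and SSR3 lost their call (adjusted p = 0.10, 0.072 and 0.090). For Huh7 against Huh1, 3 members were lower without a filter, where 5432 genes in all were called, 5 without the trend and 3 without the siRNA term. The cause was not tested. Of 1238 values for single genes, 1161 kept their call, 47 lost it, 9 gained one and 21 moved by more than the counting SD. Plain ratios without a pseudocount were added after seeing the data. The cell line pairs the libraries in the siRNA fit. No replicate number could serve as a block and no replicate was left out, since each condition has 1 library. The limma p-values rest on 1 residual degree of freedom and a spread borrowed from other genes. Depth limits ERO1LB and DERL3 most. The retrieval tails of the proteins were not analysed here.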
